A study of Mus musculus with 12 samples.

Results

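The sodium pump genes described here are the beta subunits Atp1b1, Atp1b2 and Atp1b3 and the FXYD regulators Fxyd2, Fxyd5, Fxyd6 and Fxyd7. They were taken by symbol from the deposited count table, and all 7 have a row among its 15391 genes. Of the 7, 6 passed the filter on low counts, which kept 8773 genes, and Atp1b2 did not. RNA came from cultured adult dorsal root ganglion neurons of mice with the genotype RPL22HA+/+;Advillin-Cre+, preconditioned by a sciatic nerve injury before culture. Advillin-Cre switches on an HA-tagged ribosomal protein Rpl22 in sensory neurons, so that an HA immunoprecipitate (IP) collects ribosomes of these neurons with their mRNA, while input holds RNA of every cell in the culture. The cultures received a control adeno-associated virus or AAV-shLarp1, a short hairpin against Larp1, which binds the cap and terminal oligopyrimidine tract (TOP) of mRNAs for the translation machinery. This gives 4 groups, an IP and an input for either virus, each with 3 columns of counts. The control virus is worded AAV-Control for IP and AAV-shControl for input, and all groups share the genotype and the injury.

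The sodium pump moves sodium out of the cell and potassium in, and so restores the gradients that action potentials use. An alpha subunit carries out ATP hydrolysis and ion transport, and a glycosylated beta subunit is needed for its folding, delivery to the surface and potassium affinity. FXYD proteins are small single-span membrane proteins that bind the alpha-beta complex and tune its affinity for ions.

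Column totals were 3126591 to 3177552 counts for IP and 564095 to 760140 for input. Within a group the column totals differed by 0.0344% to 0.0939%. Over genes with at least 30 counts, the median chi-square between the 3 columns was 1.46 to 1.53, where pure sampling gives 1.39, and a p under 0.05 was reached by 6.98% to 7.62% of these genes. The columns were therefore counted as 1 sample per group, and the columns' spread is that of counting. Each log2 ratio below compares summed counts, n = 1 per group, and its 95% interval holds counting error alone. No difference between groups has a replicate check. The word called is used of a gene whose interval lies entirely past 1.5-fold. Larp1, the target, had 442 counts in control IP and 149 in shLarp1 IP, and fell by 1.72 on the log2 scale (interval -1.99 to -1.45). In input it had 18 and 8 counts and a log2 ratio of -1.29 (-2.70 to -0.02), and was not called. Rpl22, the tagged ribosomal protein, had a log2 ratio of -0.17 between the viruses in IP (-0.22 to -0.12). At the scaling used here Rpl22 was called lower in IP than in input. Its log2 ratio was -0.81 (-0.91 to -0.70) with the control virus and -0.86 (-0.96 to -0.75) with shLarp1. Of 22 pan-neuronal markers, 10 were called higher in IP than in input with the control virus and 0 lower, where 18.5% of all genes were called higher and 14.8% lower. Counts are not per length, so levels are not ranked between genes. In such bulk RNA, fewer cells of a type and less RNA per cell cannot be told apart.

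Because Larp1 binds TOP mRNAs, the bases around the annotated transcription start were read from RefSeq (GRCm38.p6) for the 4 members with an entry, Atp1b1, Atp1b3, Fxyd5 and Fxyd6. Each line gives 10 bases before the start and 20 from it on, 5′ to 3′ on the gene's strand. Capitals mark any run of a C followed by at least 4 bases that are C or T, the letters of a TOP tract.
Atp1b1, chr1:164458336-164458365, minus strand: tgcgCCCTCagccaatttctcggCTCCTgg
Atp1b3, first start, chr9:96364412-96364441, minus strand: ttgggccgcgcccagccgggcgggaggcag
Atp1b3, second start, chr9:96363696-96363725, minus strand: ggcgagctccgggcgtgtgtgggttgcagg
Fxyd5, chr7:31042312-31042341, minus strand: CTTCTCTgcaccttgCCCCCatctgcgtcc
Fxyd6, chr9:45370175-45370204, plus strand: aaaaagcaacagctgctggcaaatccgctc
None of these 5 windows has such a run at the annotated start itself. Among all 32851 start windows 2.51% do, and among 76 windows of ribosomal protein genes, the classical TOP mRNAs, 18.4% do. Within 10 bases of the start, Atp1b1 and Fxyd5 hold a run, as do 30.7% of all windows and 55.3% of those of ribosomal protein genes. Annotated starts can miss the used start by some bases, so these letters describe the annotation only.

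With Larp1 knockdown, none of the 6 members that passed the filter was called in the IP, where 5.05% of 8766 genes were called, 0.73% higher and 4.32% lower. The 6 values ran from -0.43 to 0.12 with a median of 0.06, beside -0.07 for all genes. Atp1b1, Fxyd2, Fxyd5 and Fxyd7 lay above 0, and Atp1b3 and Fxyd6 below it, under each of 6 ways of scaling the groups.

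Atp1b1, the most widespread beta subunit, had 168, 183 and 196 counts in the control IP columns and 194, 217 and 234 with shLarp1. The columns overlapped, and the log2 ratio was 0.09 (-0.08 to 0.26). Atp1b3, a beta subunit found in many tissues, had 150, 130 and 123 counts with the control virus and 130, 120 and 134 with shLarp1. After scaling, all 3 shLarp1 columns lay below the control columns, and the log2 ratio was -0.22 (-0.42 to -0.01). Columns that lie apart are common here: 28.6% of the 8773 genes had all shLarp1 IP columns lower and 14.6% all higher. The spread of columns within a group is that of counting, so columns that lie apart are no replicate check. Atp1b2, the beta subunit best known from glia and neurons, had 9, 4 and 6 counts against 11, 9 and 13 in the IP. Its log2 ratio of 0.65 had an interval of -0.21 to 1.55, so a change was not detectable at this depth.

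Fxyd2, the gamma subunit first described in kidney, was the member with the most counts: 3049, 3101 and 3000 in control IP and 3478, 3544 and 3477 in shLarp1 IP. As CPM, the count scaled to depth, these were 632 and 655, a log2 ratio of 0.05 (0.01 to 0.09). Fxyd5 (dysadherin), which in other tissues lowers cell adhesion, had 559, 577 and 536 counts against 642, 642 and 659, a log2 ratio of 0.07 (-0.03 to 0.16). For both genes all scaled shLarp1 columns lay above the control columns by a margin far inside 1.5-fold. Fxyd7, a brain-enriched FXYD protein, had 236, 245 and 256 counts against 307, 285 and 298, a log2 ratio of 0.12 (-0.02 to 0.27). Fxyd6 (phosphohippolin), also expressed in brain, had 50, 44 and 41 counts against 41, 35 and 35. Its log2 ratio of -0.43 (-0.81 to -0.06) was the lowest of the 6 and did not pass the 1.5-fold rule. The scaled shLarp1 columns also lay wholly above the control columns for Fxyd7, and wholly below them for Fxyd6. Over all genes 14.6% lay wholly above and 28.6% wholly below.

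**Figure D1:**
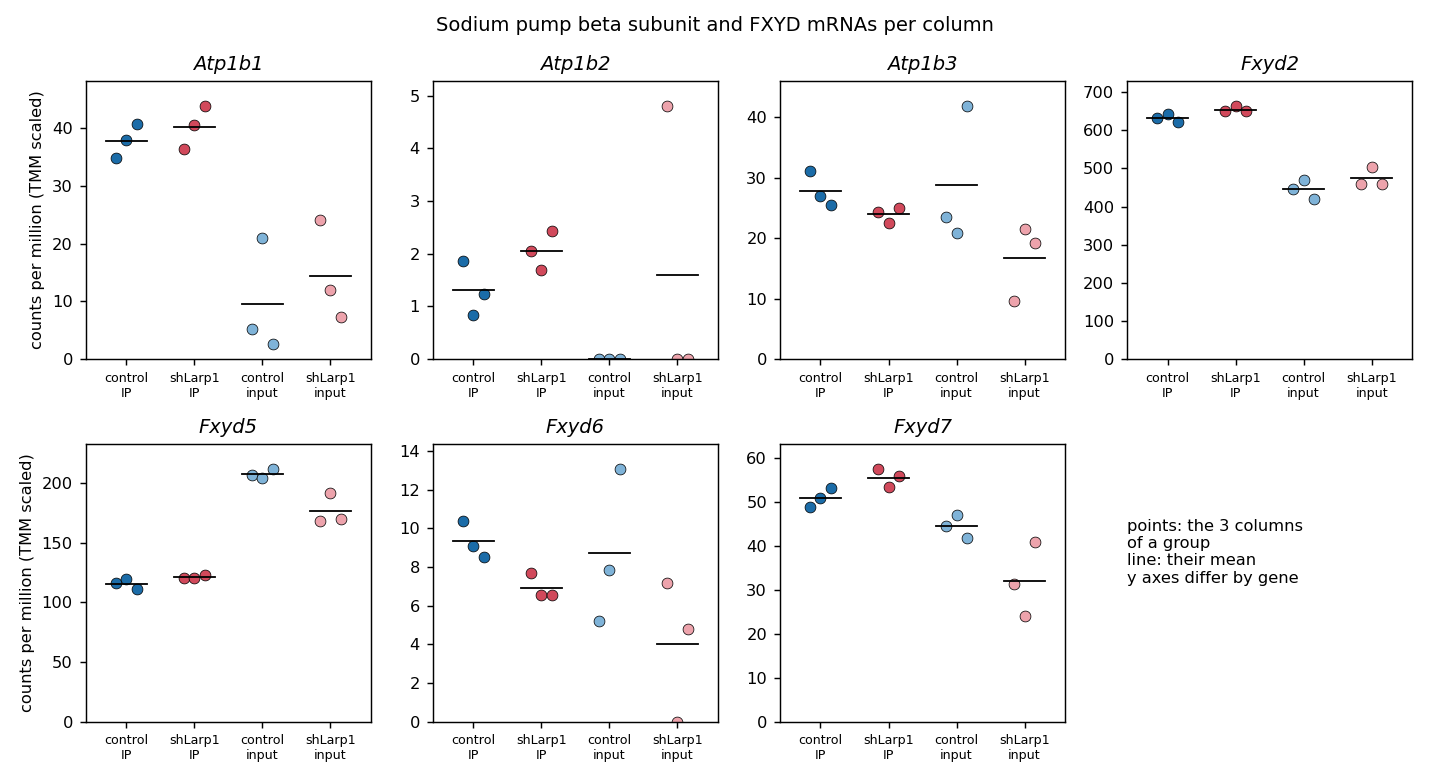
Scaled CPM (y axes start at 0 and differ by gene) of the 7 members in each of the 3 columns (points) of the 4 groups, with the mean of the columns as a line. From control to shLarp1 IP the group level goes from 632 to 655 for Fxyd2 and from 37.8 to 40.2 for Atp1b1, and for Fxyd6 from 9.33 to 6.92 with all columns lower. At this scaling Fxyd5 is higher in input than in IP, an order that turns with total counts, and Atp1b1 is lower in input.

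Differences between members within a comparison do not depend on how the groups are scaled. In the IP, the change of Fxyd6 was 0.55 lower on the log2 scale than that of Fxyd7 (interval for Fxyd7 minus Fxyd6, 0.17 to 0.94). The change of Atp1b3 was 0.31 lower than that of Atp1b1 (interval for Atp1b1 minus Atp1b3, 0.05 to 0.57). Of the 21 pairs of members, 10 had an interval that left out 0, 0 had one beyond 1.5-fold, and 0 left out 0 once the interval was widened for 21 pairs. With the columns taken as replicates, edgeR's quasi-likelihood test called 0 of the 6 in the IP at an adjusted p of 0.05 (lowest 0.109, with Fxyd6 alone under 0.05 unadjusted), and DESeq2 also called 0 (lowest 0.188, with 0 under 0.05 unadjusted).

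In the input RNA none of the 6 members was called either, at a background of 1.34% of 7588 genes, 0.567% higher and 0.778% lower. Values ran from -1.12 to 0.59 with a median of -0.35, beside -0.08 for all genes, and the intervals were wide. Fxyd2 had 171, 180 and 161 counts in control input and 191, 210 and 192 in shLarp1 input, a log2 ratio of 0.09 (-0.09 to 0.26). Fxyd5 had 79, 78 and 81 counts against 70, 80 and 71, a log2 ratio of -0.23 (-0.50 to 0.04). Neither interval reaches 1.5-fold in either direction at this scaling. After scaling, the shLarp1 input columns of Fxyd5 and Fxyd7 all lay below the control columns, as for 10.6% of genes (10.1% lay above). The nearest columns were at 192 and 204 CPM for Fxyd5 and at 40.8 and 41.8 CPM for Fxyd7. The raw counts of both genes interleave, and the columns were not read at other scalings. The columns of the other 5 members overlapped. With the columns taken as replicates, edgeR called 0 of the 6 in input at an adjusted p of 0.05 (lowest 0.178). Its unadjusted p was under 0.05 for Atp1b3 and Fxyd5. DESeq2 also called 0 (lowest 0.0646, with Fxyd2 alone under 0.05 unadjusted).

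The other members had few input counts. Fxyd7 had 17, 18 and 16 against 13, 10 and 17 (-0.48, -1.11 to 0.15), and Atp1b3 had 9, 8 and 16 against 4, 9 and 8 (-0.78, -1.64 to 0.06). Fxyd6 had 2, 3 and 5 against 3, 0 and 2 (-1.12, -3.02 to 0.56). Atp1b1 had 2, 8 and 1 counts in control input against 10, 5 and 3 in shLarp1 input. Its control input was the only group of a member with a chi-square p under 0.05 between columns (p 0.02). That p is not adjusted over the groups and rests on 11 counts, so it does not set these columns apart from counting error. The log2 ratio of Atp1b1, 0.59 (-0.57 to 1.81), ranged from -0.31 to 1.98 when one column number was left out of every group. Atp1b2 had 0 counts in control input, which allows up to 3 counts, and 2 in shLarp1 input. A change in these 5 genes was not detectable at this depth.

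By group, the level of Fxyd2 was 632 CPM in control IP, 655 in shLarp1 IP, 446 in control input and 474 in shLarp1 input. Fxyd5 had 115, 121, 208 and 177 CPM in the same order and Fxyd7 had 50.9, 55.5, 44.5 and 32.0. At this scaling Fxyd5 alone of these 3 FXYD genes was higher in input than in IP, which turned with total counts. Atp1b1 had 37.8, 40.2, 9.59 and 14.4 CPM, Atp1b3 had 27.8, 23.9, 28.8 and 16.8, and Fxyd6 had 9.33 in control IP, 6.92 in shLarp1 IP and 8.72 in control input. Atp1b2 had 1.31 CPM in control IP and 2.06 in shLarp1 IP.

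**Figure D2:**
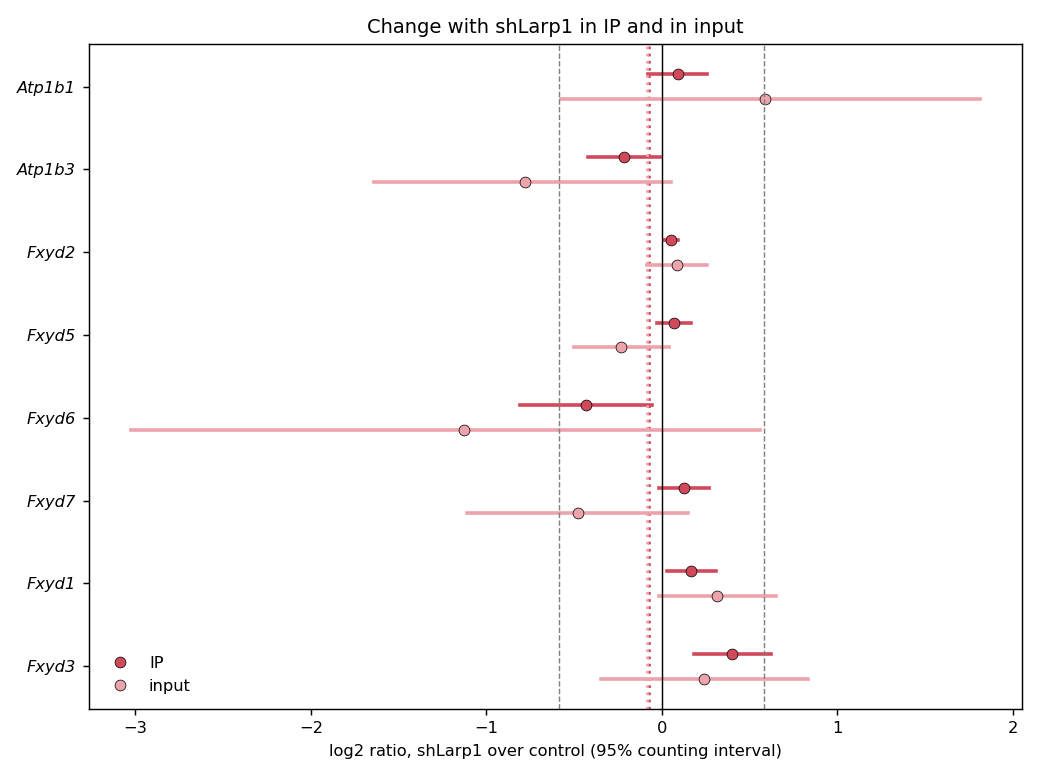
Log2 ratio of shLarp1 over control (x axis) for 6 members and the FXYD genes Fxyd1 and Fxyd3, in IP (dark red) and input (light red), with 95% counting intervals as bars. Dotted lines mark the medians of all genes (-0.07 and -0.08) and dashed lines 1.5-fold. No interval of a member lies wholly beyond a dashed line.

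IP over input set the members apart more clearly than the knockdown did. With the control virus the median of all genes was 0.43, and 33.3% of 8773 genes were called, 18.5% higher in IP and 14.8% lower. Atp1b1 was higher in IP, with 547 counts there and 11 in input, a log2 ratio of 1.98 (1.13 to 2.99). Fxyd5 was lower, with 1672 and 238 counts and a log2 ratio of -0.85 (-1.04 to -0.64). The other 4 were not called: Fxyd2 had 0.50 (0.37 to 0.63), Fxyd7 0.20 (-0.22 to 0.63), Fxyd6 0.10 (-0.83 to 1.19) and Atp1b3 -0.05 (-0.56 to 0.51). With the columns taken as replicates, 4 of the 6 members passed an adjusted p of 0.05 in DESeq2 and 3 in edgeR. Of all genes, 4585 of 8771 and 4862 of 8773 passed. Unadjusted, Atp1b1, Fxyd2, Fxyd5 and Fxyd7 were under 0.05 in both tests. These tests have no 1.5-fold rule and take the counting spread of the columns as that of samples.

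The level of these ratios depends on the scaling, because the composition of IP and input differs. Over 6 scalings the median of all genes ran from 0.23 with upper-quartile factors to 1.63 with total counts. Relative to that median, which no scaling changes, Atp1b1 lay at 1.55, Fxyd2 at 0.07, Fxyd7 at -0.23, Fxyd6 at -0.33, Atp1b3 at -0.48 and Fxyd5 at -1.27. Atp1b1 thus exceeded 84.1% of all genes, Fxyd2 52.0% and Fxyd5 19.3%. Atp1b1 was called higher under all 6 scalings. Fxyd2 was called higher under 2 of them, at 0.72 with TMM over the 12 columns and at 1.70 with total counts. Total counts also called Atp1b3 (1.15) and Fxyd7 (1.40) higher. Fxyd5 was called lower under 4 of them and lay at 0.36 with total counts. It was not called without column 1 (-0.80, -1.05 to -0.56) or without column 3 (-0.75, -0.99 to -0.50), nor without the filter on low counts (-0.74, -0.93 to -0.53).

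In TMM-scaled columns, Atp1b1, Fxyd2 and Fxyd7 lay wholly higher in control IP than in control input, as did 42.1% of genes, and Fxyd5 wholly lower, as did 23.4%. Atp1b2, with 0 counts in control input, allows no such statement. With shLarp1, Atp1b1, Atp1b3, Fxyd2 and Fxyd7 lay higher, as did 45.9% of genes, and Fxyd5 lower, as did 21.2%. Directly compared, the ratio of Atp1b1 exceeded that of Atp1b3 by 1.98 on the log2 scale (1.00 to 2.97), that of Fxyd2 by 1.41 (0.56 to 2.27) and that of Fxyd5 by 2.76 (1.90 to 3.63). The ratio of Fxyd2 exceeded that of Fxyd5 by 1.35 (1.11 to 1.58), and that of Fxyd7 exceeded that of Fxyd5 by 1.03 (0.58 to 1.48). Of 21 pairs, 9 had an interval that left out 0, 6 of these also with intervals widened for 21 pairs, and 5 lay beyond 1.5-fold. Leaving out column 2, with 8 of the 11 control input counts, raised the Atp1b1 ratio to 3.31, and leaving out column 3 lowered it to 1.53, both still called.

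With the shLarp1 virus the median of all genes was 0.55, and 34.5% of 8771 genes were called, 19.4% higher and 15.1% lower. Atp1b1 was again higher in IP (645 and 18 counts, 1.48, 0.81 to 2.25). It was not called with DESeq2 size factors (1.20) or upper-quartile factors (1.22), nor without column 3 (1.17, 0.43 to 2.02), and it was 2.21 without column 1. The other 5 were not called: Fxyd7 had 0.79 (0.34 to 1.29), Fxyd6 0.79 (-0.47 to 2.44), Atp1b3 0.51 (-0.12 to 1.22), Fxyd2 0.47 (0.35 to 0.59) and Fxyd5 -0.54 (-0.75 to -0.34). With the columns taken as replicates, 4 of the 6 members passed an adjusted p of 0.05 in DESeq2 and 5 in edgeR. Of all genes, 4644 of 8771 and 5367 of 8773 passed. Fxyd5 was called lower with DESeq2 size factors (-0.83) and upper-quartile factors (-0.81), but with total counts it was called higher (1.09, 0.89 to 1.30), so its direction rests on the scaling. Fxyd2 was called higher with TMM over the 12 columns (0.76) and total counts (2.10), and total counts also called Atp1b3 (2.14), Fxyd6 (2.42) and Fxyd7 (2.43) higher. Atp1b1 had the highest value and Fxyd5 the lowest, as with the control virus, but Atp1b1 was not separated from Fxyd7 (difference 0.67, -0.14 to 1.47) or Fxyd6 (0.78, -0.62 to 2.19). Atp1b1 exceeded Fxyd5 by 1.99 (1.30 to 2.69) and Fxyd2 exceeded Fxyd5 by 1.01 (0.78 to 1.24), while the neighbours Fxyd7, Fxyd6, Atp1b3 and Fxyd2 had overlapping intervals.

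**Figure D3:**
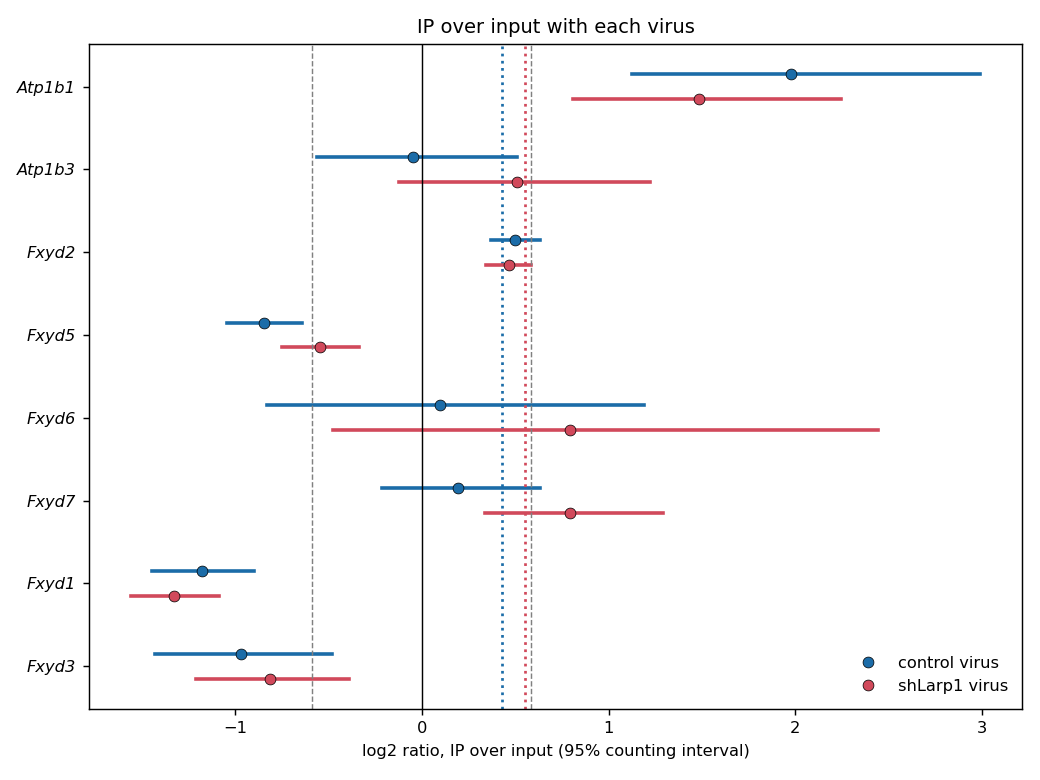
Log2 ratio of IP over input (x axis) for the same genes with the control virus (blue) and the shLarp1 virus (red), with 95% counting intervals as bars, medians of all genes as dotted lines (0.43 and 0.55) and 1.5-fold as dashed lines. Atp1b1 lies right of both medians, Fxyd5, Fxyd1 and Fxyd3 lie left of them, and Fxyd2 sits near them. The places against the medians hold at each of the 6 scalings, while Fxyd5, Fxyd1 and Fxyd3 lie above 0 with total counts.

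Summed markers of the cell types in the culture also differed between IP and input, in part through single genes. Summed over 22 pan-neuronal markers, the level was 7447 CPM in control IP, 7881 in shLarp1 IP, 3615 in control input and 2409.7 in shLarp1 input. Over 22 markers of Schwann cells and satellite glia it was 587, 556, 1640.0 and 2125, and over 20 fibroblast markers, 2 of them without a row, 602, 618, 1977 and 2292. The gene Mag alone gave 986 of the glial sum in control input and 1407 in shLarp1 input, and 7.23 in shLarp1 IP. Without Mag the glial sums were 575, 549, 654 and 718 in the same order. Without Uchl1, its most abundant marker in input, the neuronal list summed to 5319.5, 5364.6, 2069.9 and 1661.9, and without Sparc the fibroblast list to 410.04, 461, 1017 and 1192. Macrophage markers (13 of 15 with a row) summed to 98.8, 104, 228 and 167, and endothelial and mural markers (14 of 15) to 121, 103, 264 and 166. Of each of these lists at most 4 markers were at 0 or had no row in any group. The median IP over input ratio with the control virus was 1.59 for the neuronal list, -0.12 for glia and -0.84 for fibroblasts, and -1.34 over the 8 macrophage markers tested and -1.14 over 5 endothelial and mural ones. Atp1b1 at 1.98 lay above the neuronal median, Fxyd2, Fxyd6, Fxyd7 and Atp1b3 lay between the neuronal and the glial median, and Fxyd5 at -0.85 lay at the fibroblast median. Single markers overlapped between lists, from -0.59 to 2.96 for neurons, -6.37 to 1.94 for glia and -2.32 to 0.54 for fibroblasts. These places therefore assign no member to a cell type. In shLarp1 input, 1 of the 22 neuronal markers, Uchl1, was called lower than in control input (-1.05). The part of other cells in each member's input level was not tested.

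The FXYD genes can also be read as shares of all FXYD counts, which no scaling changes. Fxyd2 made up 71.9% of the FXYD counts in control IP (exact Clopper-Pearson interval 71.1% to 72.6%) and 51.7% in control input (48.6% to 54.9%). Fxyd5 made up 13.1% (12.5% to 13.7%) in control IP and 24.0% (21.4% to 26.8%) in control input. With shLarp1 the shares of Fxyd2 were 70.9% in IP and 54.0% in input, and those of Fxyd5 13.1% and 20.1%. Each share in shLarp1 IP lay within 1 percentage point of its share in control IP, for these and the other 4 FXYD genes with counts. Among beta subunits, Atp1b1 made up 56.4% of 969 counts in control IP (53.3% to 59.6%) and 25% of 44 in control input (13.2% to 40.3%).

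The interaction asks whether the knockdown effect differed between IP and input. None of the 6 members was called, at a background of 7.22% of 7581 genes, 1.04% higher and 6.17% lower. Fxyd6 had 0.63 (-0.90 to 2.16), Fxyd7 0.60 (-0.01 to 1.21), Atp1b3 0.55 (-0.26 to 1.35) and Fxyd5 0.30 (0.02 to 0.58), whose interval took in 0 with DESeq2 size factors (0.15, -0.13 to 0.43). Fxyd2 had -0.04 (-0.21 to 0.14), an interval inside 1.5-fold at this scaling, and Atp1b1 -0.47 (-1.55 to 0.60).

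Among other FXYD genes and pump-interacting genes, 4 of 8 listed have a row and 2 passed the filter, Fxyd1 and Fxyd3. Fxyd1 (phospholemman) and Fxyd3, which lie beside Fxyd5 and Fxyd7 on chromosome 7, also had low IP over input ratios at the TMM scaling. Fxyd1 was called lower in IP with both viruses (-1.18, -1.44 to -0.90, and -1.32, -1.55 to -1.09). Fxyd3 had -0.97 (-1.43 to -0.48) and -0.81 (-1.21 to -0.39) and was not called. With total counts the values were 0.027 and 0.31 for Fxyd1 and 0.23 and 0.82 for Fxyd3, all above 0. The ratio of Fxyd2, which lies next to Fxyd6 on chromosome 9, exceeded that of Fxyd1 by 1.68 (1.39 to 1.97) with the control virus. That of Fxyd7, which lies between Fxyd5 and Fxyd1, exceeded it by 1.36 (0.88 to 1.85), and with shLarp1 by 2.11 (1.60 to 2.61). Low ratios were thus not shared by all FXYD genes of chromosome 7. In the IP comparison of viruses Fxyd1 had 0.17 (0.03 to 0.31) and Fxyd3 0.40 (0.18 to 0.62). Nkain1 and Nkain2 had 16 and 26 counts in control IP and at most 2 in each input, and did not pass the filter. In the RefSeq table of GRCm38.p6, Fxyd5, Fxyd7 and Fxyd1 overlap the non-coding gene Gm38984, Fxyd3 overlaps Lgi4, and Atp1b1 overlaps Nme7. Nme7 and Lgi4 have rows of their own (399 and 203 counts over all columns), and Gm38984 has none. The overlap is of whole gene spans. Strand use in counting is not given in the sources used here, so how reads from shared stretches were assigned is not known.

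Wider lists of ion transport genes showed no call for the knockdown, where 5.05% of all genes were called in IP and 1.34% in input. With so few genes tested, no call is near those shares. Of 29 other ion pumps and gradient-driven transporters, 12 passed the filter and 0 were called in IP (median 0.13) or input (median -0.03). Of 11 voltage-gated sodium channels 6 were tested, with medians of -0.08 in IP and 0.17 in input, and of 34 potassium channels 7 were tested, with medians of -0.25 and -0.12. In IP over input with the control virus, 2 of 6 sodium channels, 1 of 7 potassium channels and 3 of 12 pumps and transporters were called, at a background of 33.3% of all genes. The sodium channel genes Scn4b (3.21, 0.71 to 8.53, 1 input count) and Scn10a (2.32, 0.95 to 4.21) were higher, as was the potassium channel subunit Kcnab2 (1.82, 1.06 to 2.70). The exchanger Slc24a2 (3.19, 0.68 to 8.50, 1 input count) and the amino acid transporter Slc38a2 (2.51, 1.13 to 4.39) were higher too, and the calcium pump Atp2b4 was lower (interval -3.47 to -2.51).

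The genes whose levels over the 4 groups were most like those of a member were found among 2926 others with enough counts, by Euclidean distance of centred log2 CPM. Closest to Atp1b1 were Reep1 (0.0293), Pafah1b1 (0.120) and App (0.132), and closest to Atp1b3 were Cdkn2d (0.0789), Acp1 (0.0897) and Mrpl24 (0.0911). Closest to Fxyd2 were Nek6 (0.0528), Pea15a (0.0637) and Fars2 (0.0683). For Fxyd5 they were Ciao2b (0.0360), Exosc1 (0.0424) and Elof1 (0.0613), and for Fxyd7 Stmn1 (0.0571), Psmd12 (0.0629) and Polr2a (0.0787). With 4 points per gene such likeness is a description only. Atp1b2 and Fxyd6 had too few counts for it.

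**Figure D4:**
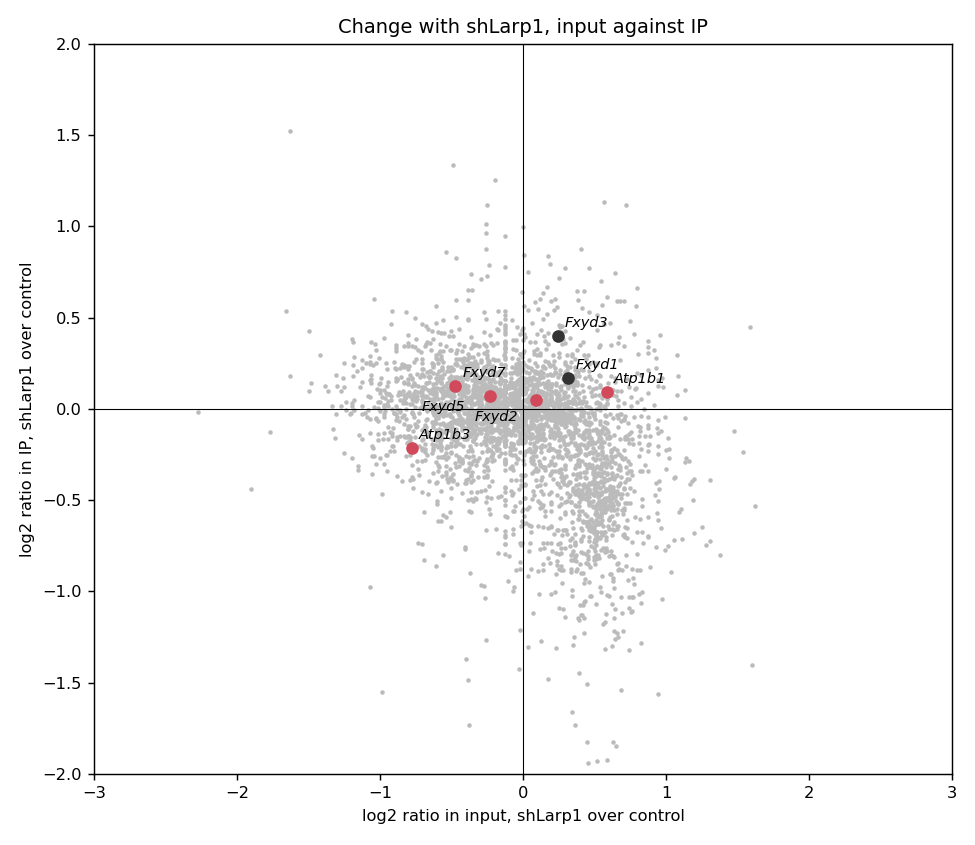
Log2 ratio of shLarp1 over control in input (x axis) and in IP (y axis), for 3398 genes with at least 10 counts in each input group (grey, 12 of them outside the axes), members (red) and Fxyd1 and Fxyd3 (black). On the y axis the 5 members drawn lie between -0.22 (Atp1b3) and 0.12 (Fxyd7). Fxyd6 and Atp1b2 are not drawn, for low input counts.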

How the data were processed

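The authors deposited whole-number counts per gene, unscaled. Per the submitters' processing notes, the tools were minimap2 and Salmon, with GRCm39 and mm39 as builds. No version, annotation or strand setting is given there, nor whether estimates were rounded. Per the labels' protocols, libraries came from a cDNA-PCR barcoding kit, and PCR reads are not independent molecules. Per the deposited values, no gene has fewer than 13 counts over the 12 columns. Gene IDs were paired with symbols by a name table (13711 matched, 1680 did not).

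Counts were summed per group, because the columns differed by about the sampling noise. Genes were kept by filterByExpr (minimum count 10) and scaled by TMM over the 4 sums, with edgeR 4.0.16 in R 4.3.3. Log2 ratios have exact Clopper-Pearson intervals at 95%. The interaction adds 0.5 counts to each group and uses a normal approximation, as do the differences between genes. The rule was also run on simulated counts with sampling error alone, the error its intervals assume. That run holds no variation between samples, so it is no check against biological variation. Alternatives were other scalings, no filter, other folds, a left-out column number, and tests with edgeR and DESeq2 1.42.0 that take the columns as replicates. The named genes were the members, Larp1, Rpl22, the other pump genes with a row, up to 4 called genes per further list, and the 3 genes most like each member. The members and lists were chosen with earlier results of these data known. Some related genes are not reported here.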

Additional observations from a re-analysis of the deposited data

Results flagged for a closer look

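Fxyd7 and Fxyd5 drew attention because the effect of shLarp1 pointed opposite ways in IP and input. In TMM-scaled columns, all shLarp1 columns lay above the control columns in IP and below them in input. Of all genes, 14.6% lay wholly higher in IP and 10.6% wholly lower in input. The share of genes with both was not counted, so the pattern cannot be called particular to these genes. The columns were read at the TMM scaling only, and in input they lay close together. The interactions on the log2 scale were 0.60 (-0.01 to 1.21) for Fxyd7 and 0.30 (0.02 to 0.58) for Fxyd5, and neither was called. Fxyd7 exceeded 75.8% of genes with an interaction value and Fxyd5 64.1%. Over the other scalings the value of Fxyd5 ran from 0.15 (-0.13 to 0.43) with DESeq2 size factors to 0.73 (0.45 to 1.01) with total counts, and that of Fxyd7 from 0.44 (-0.17 to 1.05) to 1.03 (0.42 to 1.64). The Fxyd5 interval also took in 0 with upper-quartile factors (0.24, -0.04 to 0.52), without column 1 (0.31, -0.03 to 0.65) and without column 3 (0.23, -0.11 to 0.58). The Fxyd7 value was 0.40 (-0.32 to 1.13) without column 2 and 0.89 (0.11 to 1.66) without column 3. With 1 sample per group these differences were not tested against biological variation. Taking the columns as replicates, edgeR's quasi-likelihood test passed 0 of the 6 members for the interaction (lowest adjusted p 0.0786, with Fxyd5 and Fxyd7 under 0.05 unadjusted). DESeq2 also passed 0 of the 6 (lowest adjusted p 0.302, with 0 under 0.05 unadjusted).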

How the results depend on the processing

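In the knockdown comparisons and the interaction no member was called under any scaling, filter, fold or left-out column number. The counts over all genes moved more. With DESeq2 size factors, upper-quartile factors and total counts, 260, 266 and 211 genes were called in input, against 102 by the TMM scaling, and the split of higher to lower went from 43 and 59 to 231 and 29, 237 and 29, and 7 and 204. In IP the split went from 64 and 379 to 101 and 210 with upper-quartile factors and 105 and 204 with total counts. In IP over input with shLarp1 it went from 1705 and 1323 to 1255 and 1553 with DESeq2 size factors, 1277 and 1533 with upper-quartile factors and 6183 and 748 with total counts, which gave 4549 and 651 with the control virus, against 1622 and 1300. Total counts called 5200 genes in IP over input with the control virus and 6931 with shLarp1, and turned Fxyd5 from -0.85 and -0.54 to 0.36 and 1.09 (the latter called higher), Fxyd1 to 0.027 and 0.31 and Fxyd3 to 0.23 and 0.82. They also called Atp1b3 (1.15 and 2.14), Fxyd7 (1.40 and 2.43) and, with shLarp1, Fxyd6 (2.42) higher. In the interaction total counts gave 401 higher and 138 lower, against 79 and 468. Without the filter 1071 of 15382 genes were called in IP, 312 higher and 759 lower, against 443 of 8766 with it. At the lower of the other fold rules the counts were 1249 (IP), 514 (input) and 865 (interaction), and at 2-fold 84, 15 and 164. With the columns as replicates, edgeR called 2434 (IP), 779 (input), 4862 and 5367 (IP over input, control and shLarp1) and 975 genes (interaction). DESeq2 called 1881, 910, 4585, 4644 and 974. With the replicate block edgeR called 2311, 754, 4772, 5275 and 955. Same-numbered columns did not deviate together (r from -0.0861 to 0.0880 over 18 pairs). As the columns differ by about the sampling noise, this cannot show whether the numbers pair samples. With 1 column number left out the counts were 331 to 383 (IP), 79 to 82 (input), 2442 to 2506 and 2558 to 2611 (IP over input) and 436 to 479 (interaction). TMM over the 12 columns, chosen after seeing the data, gave splits of 13 and 77 (input), 2021 and 1095 (IP over input, control) and 2274 and 1147 (shLarp1), and TMM over the compared groups, also chosen then, 1341 and 1481 for the last. The former called Fxyd2 higher in IP than input with both viruses (0.72 and 0.76), as did total counts (1.70 and 2.10). Input depth limits Atp1b1, Atp1b2, Atp1b3, Fxyd6 and Fxyd7. The causes were not tested.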

Other observations

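Read as shares of the counts of Atp1b1, Atp1b2 and Atp1b3, which no scaling changes and which are not corrected for transcript length, Atp1b1 made up 25% of 44 beta subunit counts in control input (exact Clopper-Pearson interval 13.2% to 40.3%) and 43.9% of 41 in shLarp1 input (28.5% to 60.3%), intervals that overlap. In IP its share was 56.4% of 969 counts with the control virus (53.3% to 59.6%) and 60.7% of 1062 with shLarp1 (57.7% to 63.7%). Atp1b3 made up 41.6% (38.5% to 44.8%) and 36.2% (33.3% to 39.1%) in IP.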
